A study of Mus musculus with 48 samples.

Results

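*Tac1*, *Tac2* and *Kiss1* are 3 peptide genes of the hypothalamus, picked by name from the 16510 genes in the table of cell counts. *Tac1* (chromosome 6, bases 7554879 to 7565834, plus strand) encodes the precursor of substance P and neurokinin A. *Tac2* (chromosome 10, bases 127724478 to 127731768, plus strand) encodes the precursor of neurokinin B, and *Kiss1* (chromosome 1, bases 133321875 to 133329901, plus strand) encodes kisspeptin. All are protein-coding genes, with coordinates from GENCODE on the mouse build GRCm38 (mm10). In that annotation *Kiss1* overlaps *Golt1a* and a read-through transcript on its own strand, and neither has a row in the count table, so reads from these cannot be told apart from *Kiss1* reads.

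Tachykinins are short peptides that are cut from longer precursors, stored in dense-core vesicles and released by neurons to act on G protein-coupled receptors. Kisspeptin acts on the receptor *Kiss1r* on gonadotropin-releasing hormone neurons and drives the reproductive axis. In the adult arcuate nucleus many neurons carry kisspeptin, neurokinin B and the opioid peptide dynorphin, made from *Pdyn*, whereas *Pax6* encodes a transcription factor of progenitors and of some forebrain GABA neurons.

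The cells came from hypothalami of mouse embryos late in gestation, at E18.5. Controls were *Eed fl/fl* without Cre (6 embryos, 2 female and 4 male), and *Eed-cKO* embryos were *Eed fl/fl; Sox1-Cre/+* (9 embryos, 5 female and 4 male). *Eed* encodes a core subunit of Polycomb repressive complex 2, which places the H3K27me3 mark. The floxed alleles were shared by all embryos, the Cre driver acts in neural progenitors and not in the blood or vascular lineages, and no control carried Cre, so deletion of *Eed* and presence of Cre cannot be told apart. The leading number in the library names took 4 values in control and 6 in *Eed-cKO* with none in common, so what that number marks and the genotype cannot be told apart either.

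The deposited table held 14121 cells in 48 libraries, and 13293 of them remained as hypothalamic neural cells (All-Hypo, 6839 control and 6454 *Eed-cKO*) once 828 cells in vascular, meningeal and microglial clusters were set aside. Of these, 10073 lay in clusters called neuron-like from general neuronal markers (5212 control and 4861 *Eed-cKO*). The embryos held 208 to 1595 All-Hypo cells and 627508 to 7328566 molecules, counted as unique molecular identifiers (UMIs), and the median cell had 4768 UMIs in control, 4425 in *Eed-cKO*. A single control library, from embryo 5, stood apart with 1207 cells and a median of 2919 UMIs, whereas the other libraries held 163 to 465 cells. Between libraries 101 cell barcodes were shared, carried by 23 *Tac1*-positive, 2 *Tac2*-positive and 3 *Kiss1*-positive cells. The targeted gene *Eed* was lower in every *Eed-cKO* embryo than in any control, with a counts-per-million (CPM) level, UMIs of the gene over all UMIs of the sum, of 31.9 ± 1.89 CPM (SD, n = 6) in control and 23.3 ± 2.61 CPM (SD, n = 9) in *Eed-cKO*. Peptide genes of the hypothalamus were present in the control, among them *Avp* (vasopressin) at 590 ± 423 CPM (SD, n = 6) and *Pomc*, the melanocortin precursor, at 20.3 ± 12.1 CPM (SD, n = 6). Cells led by *Neurod6* and *Neurod2*, transcription factor genes of cortical excitatory neurons, and by *Gbx2* and *Tcf7l2*, of the thalamus, formed clusters of their own among the neuron-like cells, with 243 control and 239 *Eed-cKO* cells in the former and 344 and 26 in the latter.

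The first comparison asked whether the amount of each transcript differed between genotypes. The UMI sums of each embryo's All-Hypo cells were tested by edgeR's quasi-likelihood method, with Benjamini-Hochberg adjustment over 12545 genes. In that fit 27.7% of all genes were called, 15.3% higher and 12.4% lower in *Eed-cKO*. Of the 3 genes 1 was called, *Kiss1*, and it rose. In such sums, fewer cells of a type and less RNA per cell cannot be told apart, and the cell-level values that follow give each its own measure.

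*Kiss1* ran from 1.37 through a median of 3.38 to 8.30 CPM over the 6 controls and from 0 through 8.87 to 23.0 CPM over the 9 *Eed-cKO* embryos. The ranges overlapped: 2 *Eed-cKO* embryos lay within the control range, 1 had no *Kiss1* UMI at all, and the other 6 lay above the highest control. The fitted difference was a rise of 1.38 on the log2 scale (SE 0.43, edgeR adjusted p = 0.0197). The call rested on few cells: with the 10 cells of highest *Kiss1* left out the difference was 0.30 (edgeR adjusted p = 0.633). Those 10 were picked over both genotypes and most were *Eed-cKO* cells, so leaving them out was bound to shrink the rise. DESeq2 gave 1.32 (adjusted p = 0.0541) and limma-voom 1.22 (adjusted p = 0.0561) on the same sums.

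*Tac2* ran from 10.3 through 12.1 to 28.2 CPM in control and from 0 through 8.67 to 38.8 CPM in *Eed-cKO*. In all, 7 of the 9 *Eed-cKO* embryos lay below every control, but embryos 1 and 8 reached 17.8 and 38.8 CPM, so the groups overlapped. The fitted difference was -0.42 on the log2 scale (SE 0.46, edgeR adjusted p = 0.545). Here too a few cells set the value, since with the 10 cells of highest *Tac2* left out the difference was -1.15 (edgeR adjusted p = 0.0261). Those 10 were picked over both genotypes and held a larger part of the *Eed-cKO* than of the control UMIs. Leaving them out was thus bound to push the difference down, so this value is no separate evidence of a fall.

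*Tac1* ran from 64.1 through 93.3 to 153 CPM in control and from 59.8 through 119 to 142 CPM in *Eed-cKO*, with nearly the same range in each genotype. Its fitted difference was 0.15 on the log2 scale (SE 0.20, edgeR adjusted p = 0.610). Per 1000 bases of annotated exon, a scale that ignores the 3′ bias of the library kit, the pooled control UMIs were 1131 for *Tac1*, 394 for *Tac2* and 203 for *Kiss1*, and the *Eed-cKO* UMIs were 1099, 260 and 472.

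**Figure D1:**
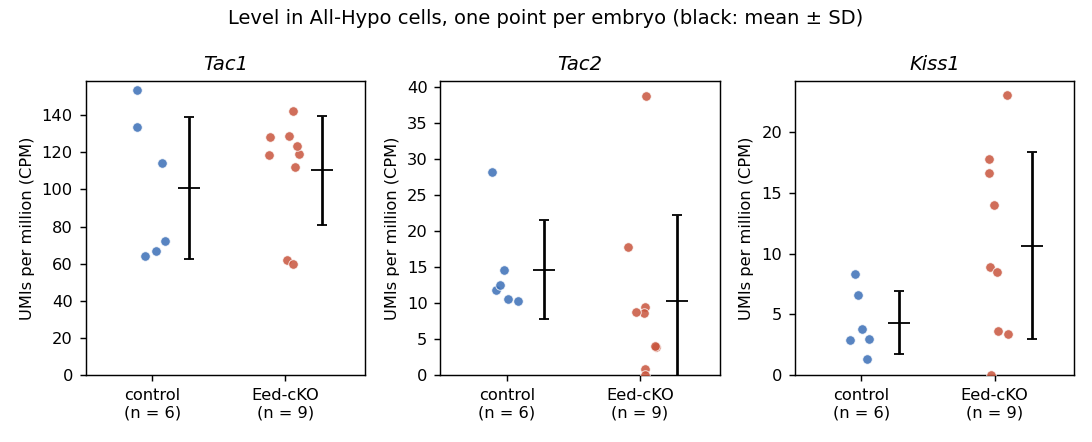
CPM of *Tac1*, *Tac2* and *Kiss1* (y axis, linear, starting at 0) summed over the All-Hypo cells of each embryo, 1 point per embryo, with control (n = 6) in blue, *Eed-cKO* (n = 9) in red, and mean ± SD in black, its lower arm cut at 0. The genotypes overlap for all 3 genes, 1 *Eed-cKO* embryo reaches 38.8 CPM of *Tac2*, and most *Eed-cKO* embryos lie above the highest control for *Kiss1* (8.30 CPM).

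The level was then split into how many cells held the transcript and how much each held. *Tac1* was widespread, with at least 1 UMI in 911 (13.3%) of the 6839 cells of controls and in 1093 (16.9%) of the 6454 from *Eed-cKO*. *Tac2* was seen in 113 control (1.65%) and 64 *Eed-cKO* cells (0.992%). *Kiss1* was seen in 53 control (0.775%) and 57 *Eed-cKO* cells (0.883%). In non-neural cells, which should lack these peptides, the control shares were 1.44% for *Tac1* (5 of 347 cells; exact binomial 95% interval 0.469% to 3.33%) and 0.576% for *Tac2* and for *Kiss1* (2 of 347 cells each; 0.0699% to 2.07%), at a median of 3946 UMIs. The control *Tac2* and *Kiss1* shares thus lay within the interval of this background. At 5 or more UMIs no non-neural cell of either genotype had *Tac2*, but 2 control cells had *Kiss1*, with 20 UMIs between them in an endothelial-like cluster, which is 0.576% of the non-neural cells. In *Eed-cKO* the non-neural shares were 4.99% for *Tac1*, 0 of 481 cells for *Tac2*, which allows a share of up to 0.624% by a limit of 3 counts and 0.764% by the exact interval, and 0.208% for *Kiss1*, at a median of 3708 UMIs. All such intervals and limits cover counting error only.

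Per embryo, the share of cells with *Tac2* ran from 1.25% through 1.67% to 2.17% in control and from 0% through 0.619% to 2.40% in *Eed-cKO*. Embryo 5 of the *Eed-cKO* group held the highest share of all, 2 more lay inside the control range, and the remaining 6 lay below it. The means were 1.69 ± 0.340% (SD, n = 6) and 0.903 ± 0.722% (SD, n = 9), and the difference did not pass after adjustment over the 3 genes (exact two-sided permutation test over embryos, p = 0.0308, adjusted p = 0.0923). It passed when a cell needed 2 UMIs (adjusted p = 0.0102) and when each cell was thinned to 2000 UMIs (adjusted p = 0.0282).

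Cells with at least 5 *Tac2* UMIs, a level well above single stray molecules, were 26 of the 113 positive cells in control and 12 of 64 in *Eed-cKO*. Their share of All-Hypo cells ran from 0.251% through 0.388% to 0.584% in control and from 0% through 0.206% to 0.286% in *Eed-cKO*. It fell from 0.391 ± 0.118% (SD, n = 6) to 0.161 ± 0.124% (SD, n = 9; exact permutation test over embryos, p = 0.0024, adjusted p = 0.0072). A single control, embryo 5, lay within the *Eed-cKO* range. Without the library of 1207 cells the difference was -0.188 percentage points against -0.230 (exact permutation adjusted p = 0.131). That setting kept the rest of control embryo 5, whose other libraries held 3 and 4 *Tac2* UMIs. No cell in these could thus reach 5. With a whole embryo left out in turn, control embryo 5 among them, the call held in all 15 fits (-0.258 to -0.191 points).

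Neither *Tac1* nor *Kiss1* differed past the threshold in its share of positive cells. *Tac1*-positive cells made up 13.1 ± 3.08% of cells in control (SD, n = 6) and 16.4 ± 4.12% in *Eed-cKO* (SD, n = 9; exact permutation test, adjusted p = 0.191). *Kiss1*-positive cells made up 0.781 ± 0.325% and 0.797 ± 0.469% (adjusted p = 0.944), while the *Kiss1* sum rose. Cells with at least 5 *Kiss1* UMIs numbered 10 in control and 20 in *Eed-cKO*, a mean share of 0.152% and 0.270% (exact permutation test, adjusted p = 0.301). The control share lay within the interval of the control non-neural cells at that level (0.576%, 2 of 347 cells, 0.0699% to 2.07%). In *Eed-cKO* 1 of 481 non-neural cells had *Kiss1*, with 1 UMI, so none reached that level.

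Mean UMIs per positive cell did not differ past the threshold for any of the genes. For *Kiss1* the embryo means were 2.99 ± 0.876 UMIs (SD, n = 5) in control and 5.68 ± 2.65 UMIs (SD, n = 5) in *Eed-cKO* (exact permutation test, adjusted p = 0.203), over embryos with at least 5 positive cells. For *Tac1* they were 4.18 ± 1.36 (SD, n = 6) and 3.31 ± 0.774 (SD, n = 9; exact permutation test, adjusted p = 0.203). For *Tac2* they were 4.74 ± 2.07 (SD, n = 6) and 6.34 ± 6.88 (SD, n = 5; exact permutation test, adjusted p = 0.736), the wide spread coming from an *Eed-cKO* embryo with a mean of 18.0 UMIs.

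The transcripts were concentrated in few cells, to very different degrees. The 10 highest cells held 18.7% of the 3843 control *Tac1* UMIs and 12.3% of the 3736 *Eed-cKO* UMIs. For *Tac2* they held 52.5% of 543 UMIs in control and 76.3% of 358 UMIs in *Eed-cKO*, and the highest cells held 115 and 109 UMIs. For *Kiss1* they held 60.8% of 158 and 67.4% of 368 UMIs. At the other end, 443 of the 911 control and 519 of the 1093 *Eed-cKO* *Tac1*-positive cells held exactly 1 UMI, as did 55 of 113 and 38 of 64 *Tac2*-positive cells and 31 of 53 and 30 of 57 *Kiss1*-positive cells.

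**Figure D2:**
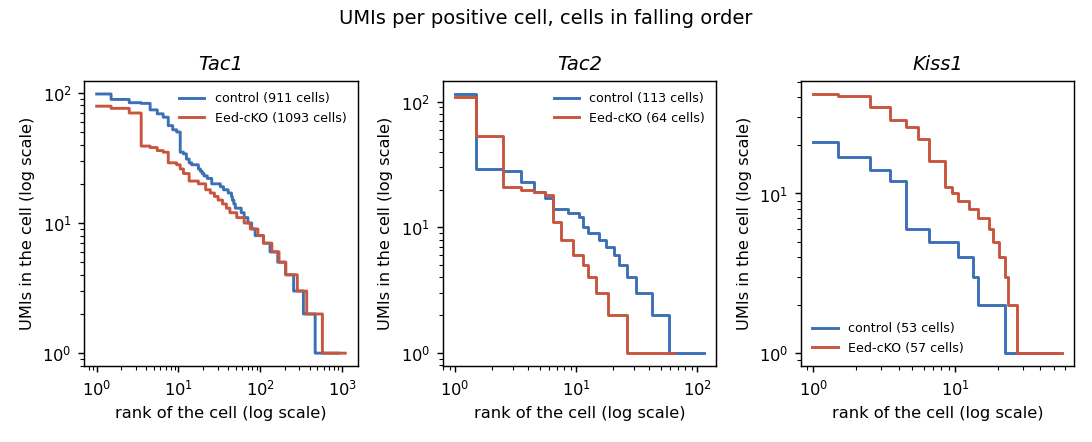
UMIs of *Tac1*, *Tac2* and *Kiss1* in each positive All-Hypo cell (y axis, log scale) against the rank of the cell from highest to lowest (x axis, log scale), cells pooled over the embryos of a genotype, control in blue and *Eed-cKO* in red. The *Kiss1* line of *Eed-cKO* starts at 42 UMIs and that of control at 21, and for *Tac2* the control line runs above that of *Eed-cKO* from about rank 7 on.

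Co-detection was scored next. Of the 9 gene pairs tested, 1 passed: cells with UMIs of *Tac2* and *Pax6* together fell in *Eed-cKO*. They numbered 26 in control, at least 1 in every embryo, and 3 in *Eed-cKO*, 1 in each of 3 embryos. Their share of All-Hypo cells ran from 0.178% through 0.342% to 0.779% in control and from 0% through 0% to 0.195% in *Eed-cKO*. The controls fell at 0.178%, 0.188%, 0.197%, 0.486%, 0.572% and 0.779%, and the single *Eed-cKO* embryo at 0.195% lay above 2 of these. The means were 0.400 ± 0.251% (SD, n = 6) and 0.0497 ± 0.0772% (SD, n = 9; exact two-sided permutation test over embryos, p = 0.0006, adjusted p = 0.0054).

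The *Tac2* and *Pax6* cells of the control shared further features. Of the 26 cells, 12 carried the vesicular GABA transporter *Slc32a1* without the glutamate transporter *Slc17a6*, and 4 carried *Slc17a6* alone. A median of 4 *Tac2* UMIs per cell was held by these cells, against 1 in *Tac2*-positive cells without *Pax6*, and 12 of the 26 control cells with at least 5 *Tac2* UMIs were *Pax6*-positive against 0 of 12 in *Eed-cKO*. In all, 20 of the 26 lay in a neuron-like cluster led by *Lhx6*, *Dlx1as* and *Dlx6os1*, genes of ventral forebrain GABA neurons. In that cluster *Tac2* was seen in 27 of 264 cells from controls and in 0 of 130 from *Eed-cKO* (which allows up to 2.31%), and 46 control and 2 *Eed-cKO* cells had *Pax6*. The gene *Pax6* itself was at 28.7 ± 12.3 CPM in control (SD, n = 6) and 17.3 ± 9.37 CPM in *Eed-cKO* (SD, n = 9), which did not pass (log2 difference -0.68, edgeR adjusted p = 0.0677).

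Cells with *Tac2* and *Kiss1* together numbered 17 in control and 23 in *Eed-cKO*. Their share of All-Hypo cells was 0.254 ± 0.168% (SD, n = 6) and 0.322 ± 0.301% (SD, n = 9; exact permutation test, adjusted p = 0.919). As a share of the *Tac2*-positive cells, those with *Kiss1* ran from 0% through 15% to 22.7% in control and from 28.6% through 33.3% to 40.0% over the 5 *Eed-cKO* embryos with at least 5 *Tac2*-positive cells. The groups did not overlap. The mean rose from 14.2 ± 7.90% (SD, n = 6) to 35.0 ± 4.92% (SD, n = 5; exact permutation test, p = 0.00216, the smallest that 6 against 5 embryos can give, adjusted p = 0.0260 over 12 such shares). It missed the threshold in neuron-like clusters alone (adjusted p = 0.0779), without the cells of highest doublet score (0.117), at 2 UMIs (0.214) and thinned (0.286), each an adjusted p of the exact permutation test, and in 10 of the 15 fits that left out an embryo (differences of 18.0 to 22.5 points). Fewer embryos raise the smallest p this test can give, to 0.00794 for 5 against 5. Adjusted over 12 shares, that floor alone can lose the call, so the 10 losses do not show a smaller difference. In all these settings the difference stayed positive.

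The *Pax6* share of *Tac2*-positive cells stood at 24.2 ± 14.6% in control (SD, n = 6) and 3.86 ± 6.22% in *Eed-cKO* (SD, n = 5; exact permutation test, p = 0.0238, adjusted p = 0.143). The *Pdyn* share stood at 12.8 ± 9.03% (SD, n = 6) and 30.2 ± 18.2% (SD, n = 5; adjusted p = 0.227 by the same exact test). Cells with *Tac2*, *Kiss1* and *Pdyn*, the trio of adult arcuate kisspeptin neurons, numbered 4 in control and 12 in *Eed-cKO*. These pooled counts were not tested between genotypes, and *Eed-cKO* embryo 5 gave more of the cells than any other embryo.

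**Figure D3:**
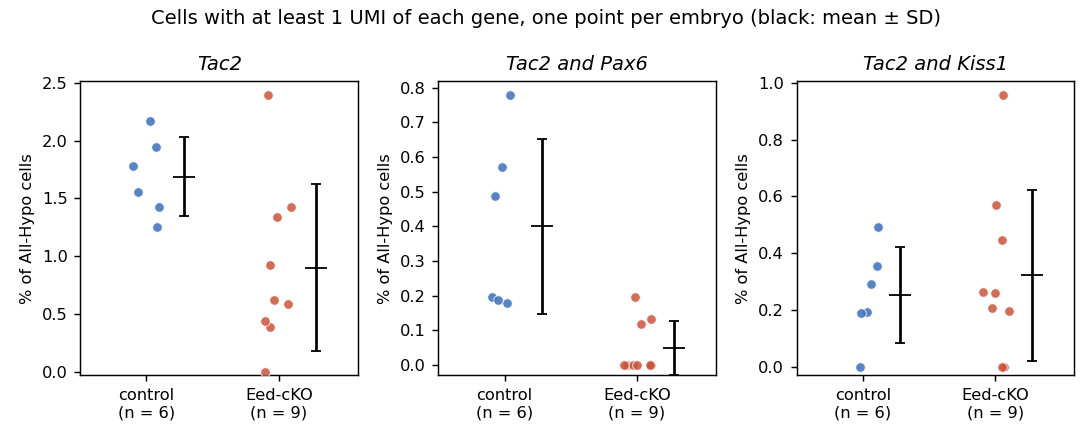
Share of All-Hypo cells (y axis, %) with a UMI of *Tac2*, of *Tac2* and *Pax6*, and of *Tac2* and *Kiss1*, 1 point per embryo, control (n = 6) in blue, *Eed-cKO* (n = 9) in red, and mean ± SD in black, its lower arm cut where it would pass below the axis. In the middle panel 6 of the 9 *Eed-cKO* embryos sit at 0% and the controls between 0.178% and 0.779%, whereas in the right panel the genotypes overlap.

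In *Eed-cKO* the *Kiss1* transcript sat almost wholly in cells that also had *Tac2*. These 23 cells held 322 of 368 *Kiss1* UMIs (87.5%), a mean of 14.0 per cell, against a mean of 1.35 in the 34 *Kiss1*-positive cells without *Tac2*. In control the 17 cells with both held 82 of 158 *Kiss1* UMIs (51.9%), a mean of 4.82, against 2.11 in the 36 without *Tac2*. Of the cells with at least 5 *Kiss1* UMIs, 6 of 10 in control and 19 of 20 in *Eed-cKO* had *Tac2*. These are counts of pooled cells and were not tested between genotypes.

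The highest cells show the same pairing. The top *Tac2* cell, in female control embryo 6, held 115 *Tac2* and 21 *Kiss1* UMIs among 5909 in all. The next, in female *Eed-cKO* embryo 8, held 109 and 42 UMIs among 6987 and was among the cells of highest doublet score. The third, in female *Eed-cKO* embryo 1, held 53 and 41 UMIs among 5739. None of these 3 had a *Pax6* or *Tac1* UMI. All but 1 of the 10 highest *Kiss1* cells lay in the neuron-like clusters led by *Cited1* and *Tbx3* or by *Insm1*. The 10 highest *Tac1* cells had neither *Tac2* nor *Kiss1*. Few cells have them (1.65% and 0.775% of control, 0.992% and 0.883% of *Eed-cKO* cells), so any 10 cells would mostly lack both.

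**Figure D4:**
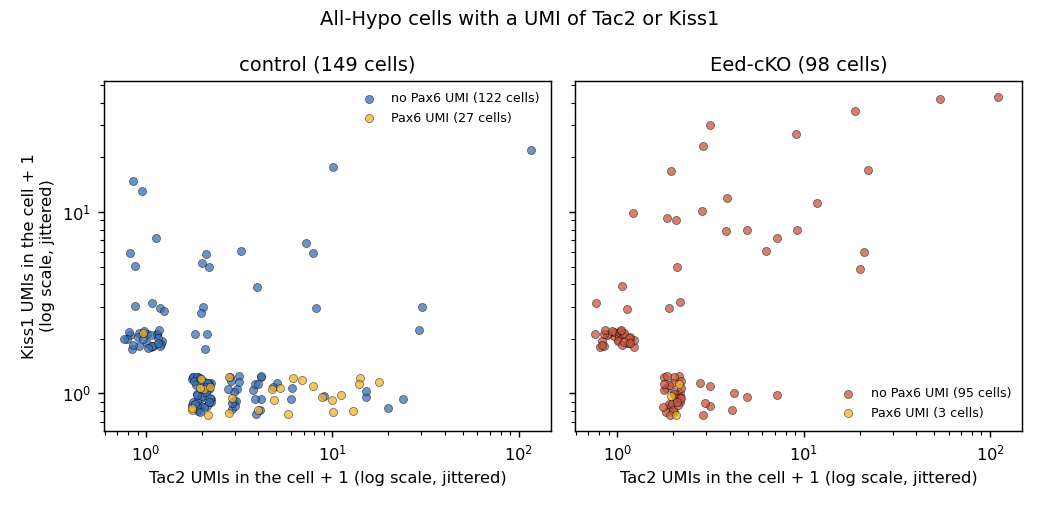
UMIs of *Kiss1* (y axis) against UMIs of *Tac2* (x axis) in each All-Hypo cell with either transcript, both plus 1 on log scales and jittered so that equal counts can be seen, for control (149 cells, left) and *Eed-cKO* (98 cells, right), with *Pax6*-positive cells in yellow. In control 26 of the 27 *Pax6*-positive cells lie along the bottom, with *Tac2* and no *Kiss1*, and in *Eed-cKO* 3 remain, while cells high in both lie toward the upper right.

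Within neuron-like cells of 1 genotype, each gene's positive cells were compared with the negative cells of the same embryo. These can differ in depth. Over All-Hypo cells the median was 6422 UMIs in *Tac1*-positive, 5145 in *Tac2*-positive, 4419 in *Kiss1*-positive and 4768 in all control cells. In *Eed-cKO* the medians were 5873, 4746.5, 5092 and 4425. The shares of positive against negative cells, here and by transmitter class, are not adjusted for depth. In control *Pax6* was detected in 25.1 ± 14.4% of *Tac2*-positive and 3.99 ± 1.00% of *Tac2*-negative cells, higher in 6 of 6 embryos (SD, n = 6; exact sign-flip permutation test, p = 0.03125, the smallest that 6 embryos can give, adjusted p = 0.125). *Kiss1* was detected in 15% of *Tac2*-positive and 0.621% of *Tac2*-negative cells, higher in 5 of 6 embryos. The *Tac1* transcript went the other way, in 9.06% of *Tac2*-positive against 15.3% of *Tac2*-negative cells, lower in 6 of 6 embryos. None of 12 pairs, each direction counted, passed after adjustment in either genotype, with 3 in control and 0 in *Eed-cKO* at an unadjusted exact p under 0.05. Those 3 include *Tac1* with *Tac2* in both directions. With 5 or fewer embryos this test cannot go below 0.0625, and with 6 not below 0.03125. In control, passing over 12 pairs thus needed many of them at the floor at once, so the adjusted result there says little about any pair.

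In *Eed-cKO*, *Kiss1* was detected in 35.3 ± 12.1% of *Tac2*-positive and 0.631 ± 0.198% of *Tac2*-negative cells, higher in 5 of 5 embryos (SD, n = 5). *Pdyn* was detected in 33.0% of *Tac2*-positive against 14.8% of *Tac2*-negative cells, also higher in 5 of 5 embryos, whereas in control it was at 13.3% against 17.2%. *Pax6* was at 3.97% against 2.69%. For *Tac1*, *Pdyn* was at 18.49% of positive against 16.8% of negative cells in control and 14.9% against 13.5% in *Eed-cKO*, differences that lay within the spread between embryos (unadjusted exact permutation p = 0.219 and 0.402).

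*Tac1* and *Pax6* were found together in 24 control and 41 *Eed-cKO* cells. The share was 0.299 ± 0.322% of All-Hypo cells in control (SD, n = 6) and 0.630 ± 0.181% in *Eed-cKO* (SD, n = 9; exact permutation test, p = 0.0270, adjusted p = 0.121). A single control embryo, number 5, stood at 0.940%, while every other control lay below the *Eed-cKO* median of 0.648%. Without the library of 1207 cells, which came from that embryo, the difference of 0.412 percentage points passed (adjusted p = 0.00899).

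Transmitter class was read from the vesicular transporters: *Slc17a6* alone marks glutamate (Glut), *Slc32a1* alone marks GABA, and a cell may have both (Glut/GABA) or neither. *Tac1*-positive cells were mostly Glut, 530 of 911 in control and 553 of 1093 in *Eed-cKO*. Glut/GABA cells rose from 6.32 ± 4.37% of *Tac1*-positive cells (SD, n = 6) to 20.8 ± 7.66% (SD, n = 9; exact permutation test, adjusted p = 0.00959 over 12 class shares). The GABA class fell from 14.8 ± 4.79% to 7.71 ± 2.36% (same exact test, adjusted p = 0.00959). The Glut class stood at 59.4 ± 8.64% and 48.6 ± 10.4% (adjusted p = 0.129 by that exact test).

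The same shift was present in neuron-like cells without *Tac1*. Glut/GABA cells made up 5.12 ± 2.78% of *Tac1*-negative cells in control (SD, n = 6) and 21.8 ± 5.92% in *Eed-cKO* (SD, n = 9; exact permutation test, p = 0.0004). The gap between positive and negative cells in this class did not differ between genotypes past the threshold (p = 0.537 by an exact permutation test of the difference). For the GABA class the negative cells went from 27.2 ± 4.96% to 13.1 ± 2.19%, so that *Tac1*-positive cells lay 11.6 percentage points below negative cells in control and 4.93 below in *Eed-cKO*. That gap narrowed by 6.67 points (exact permutation test, adjusted p = 0.0296).

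*Tac2*-positive cells behaved differently. In control they were divided between 37 Glut and 38 GABA cells, and in *Eed-cKO* between 34 Glut and 6 GABA cells, with 6 Glut/GABA cells in each genotype. The Glut share ran from 25% through 32.5% to 40.0% in control and from 45.0% through 50% to 83.3% in *Eed-cKO*, without overlap. It rose from 32.2 ± 5.89% (SD, n = 6) to 56.4 ± 15.7% (SD, n = 5; exact permutation test, adjusted p = 0.00959), whereas the GABA share, at 32.8 ± 10.9% and 12.0 ± 11.7%, missed the threshold (adjusted p = 0.0584 by the same exact test). In *Tac2*-negative neuron-like cells the Glut share was 46.3 ± 1.93% in control and 42.6 ± 0.998% in *Eed-cKO*. The positive-minus-negative difference in Glut share moved by 31.0 percentage points between genotypes (exact permutation test, adjusted p = 0.0130).

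The Glut/GABA class of *Tac2*-positive neuron-like cells stood at 4.61 ± 6.84% in control (SD, n = 6) and 4.44 ± 9.94% in *Eed-cKO* (SD, n = 5), while in *Tac2*-negative cells of the same embryos it went from 5.32 ± 2.85% to 20.6 ± 5.53%. These gaps differed by -15.5 points between genotypes (adjusted p = 0.0130, exact permutation over embryos). Few cells carry this value. Among *Tac2*-positive All-Hypo cells the Glut/GABA share of the 5 *Eed-cKO* embryos ran from 0% through 0% to 20%. Embryos with fewer than 5 *Tac2*-positive cells were left out of it. Pooled over all embryos, 6 of 113 control and 6 of 64 *Eed-cKO* *Tac2*-positive cells were Glut/GABA. *Kiss1*-positive cells were 23 Glut and 12 GABA of 53 in control and 27 Glut and 4 GABA of 57 in *Eed-cKO*, and none of their class shares passed (smallest adjusted p = 0.397, exact permutation test). With cells thinned to 2000 UMIs, and 1231 control and 1015 *Eed-cKO* cells left out as shallower, 3 of these calls were lost: *Tac1* Glut/GABA (a difference of 4.80 points against 14.4, adjusted p = 0.0551), *Tac1* GABA (-2.39 against -7.07, adjusted p = 0.375) and *Tac2* Glut (12.1 against 24.3, adjusted p = 0.375, all by the exact permutation test). They were also lost when a positive cell needed 2 UMIs (14.1, -5.43 and 47.1 points, exact permutation adjusted p = 0.0647, 0.147 and 0.143).

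**Figure D5:**
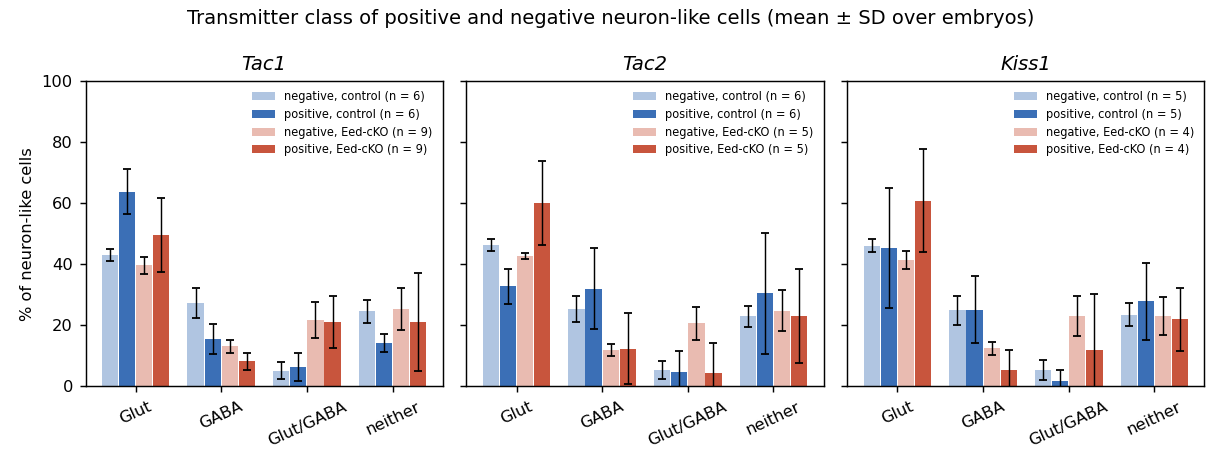
Share of neuron-like cells (y axis, %) in each transmitter class, for cells positive (dark) or negative (pale) for *Tac1*, *Tac2* and *Kiss1*, in control (blue) and *Eed-cKO* (red), as means over embryos with SD bars cut at 0 and n in the legend. In *Eed-cKO* Glut/GABA is at 21.2% with and 21.8% without *Tac1*, but at 4.44% in *Tac2*-positive against 20.6% in *Tac2*-negative cells. The *Tac2*-positive value rests on few cells.

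The places of these cells among the clusters differed by gene. *Tac1* was most frequent in a cluster led by *Foxb1*, a transcription factor gene of the mammillary region, where 46.4% of 351 control and 43.7% of 428 *Eed-cKO* cells were positive. A cluster led by *Barhl1*, *Irx5*, *Foxa1* and *Lmx1a* followed with 27.2% of 610 and 39.7% of 383 cells and held 7 of the 10 highest *Tac1* cells, with 1123 and 961 UMIs in all. A cluster of 1443 *Eed-cKO* and 12 control cells led by *Hoxc13* and *Hoxc10* held 207 *Tac1*-positive *Eed-cKO* cells (14.3%). *Kiss1* was spread over the *Insm1* cluster (19 control and 17 *Eed-cKO* cells) and the *Cited1* and *Tbx3* cluster (7 and 12 cells, with 31 and 195 UMIs). As clusters were built from these same genes among others, their shares are descriptions.

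Genes that went with *Tac1* were sought by summing positive and negative neuron-like cells per embryo, with the embryo as a block in edgeR's quasi-likelihood test. In control 205 of 11862 genes were called (1.73%), 117 higher (0.986%) and 88 lower (0.742%) in *Tac1*-positive cells. In *Eed-cKO* 318 of 12583 were called (2.53%), 158 higher (1.26%) and 160 lower (1.27%). Of the genes tested in both genotypes, 56 were higher in both, 48.3% of the control list and 37.1% of the *Eed-cKO* list, and 51 were lower in both, 61.4% and 35.7%.

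The 10 genes with the largest excess in control *Tac1*-positive cells began with *Foxa1*, a forkhead transcription factor gene, at 82.4 ± 38.0 CPM in positive and 25.3 ± 7.06 CPM in negative cells (SD, n = 6; log2 difference 1.72, SE 0.14, edgeR adjusted p = 1.14e-09). The zinc-finger gene *Sall3* stood 1.69 higher on the log2 scale, *C1ql1*, which encodes a secreted synaptic protein, 1.46, *Foxb1* 1.44 and the interferon-induced *Ifit2* 1.41. *Trh*, the thyrotropin-releasing hormone gene, stood 1.38 higher, *Lhfp* 1.14, *Fezf1*, a forebrain zinc-finger factor, 1.12, *Ebf2* 1.08 and *D930028M14Rik* 1.03. In *Eed-cKO* 8 of these 10 were also called higher, with *Foxa1* at 1.11 and *Foxb1* at 0.84, whereas *Trh* (0.07, edgeR adjusted p = 0.960) and *Fezf1* (0.40, adjusted p = 0.221) were not. Whether the difference for *Trh* or *Fezf1* itself differed between genotypes was not tested.

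Among the genes fixed by lists, *Slc17a6* was higher in *Tac1*-positive control cells (0.53 on the log2 scale), as were *Nkx2-1*, a hypothalamic identity factor (0.67), and the peptide genes *Cck* (0.71), *Nts* (0.76) and *Adcyap1* (0.55). *Tac2* (-3.17), *Pax6* (-2.54) and *Slc32a1* (-0.66) were lower, together with *Pmch* (-6.65), *Oxt* (-4.88) and *Agrp* (-2.53), which mark other peptide neurons and were higher in 0 of 6 embryos each. Of 24 neuropeptide genes tested in control, 4 were higher, with *Trh* the remaining one, and 6 lower, the remaining ones *Ghrh* (-1.53, but higher in 2 of 6 embryos) and *Hcrt* (-4.07, but higher in 3 of 6), and the list had a median of -0.08 against 0.0035 over all genes. In *Eed-cKO* the *Kiss1* UMIs were lower in *Tac1*-positive cells (-2.03, edgeR adjusted p = 5.52e-05), *Tac2* stood at -3.07 and *Pax6* at -0.997. Detection did not follow for *Kiss1*, found in 1.21% of *Tac1*-positive and 0.796% of *Tac1*-negative cells (exact sign-flip test, unadjusted p = 0.352). The 15 *Kiss1*-positive cells with *Tac1* held 26 of 368 *Kiss1* UMIs. *Pax6* was found in 3.95% and 3.29%, and *Tac2* in 0.750% and 1.10% (same test, unadjusted p = 0.488 and 0.359).

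For *Tac2* the same comparison could be run in control alone, as too few *Eed-cKO* cells were positive. There 116 of 11439 genes were called (1.01%), 44 higher (0.385%) and 72 lower (0.629%). With DESeq2's size factors in place of the trimmed mean of M values the split was 58 higher and 50 lower, so the share of higher calls moved from 37.9% to 53.7%. *Kiss1* led with 107 CPM in positive and 2.27 CPM in negative cells (log2 difference 5.74, SE 0.49, higher in 5 of 6 embryos). It was followed by *Gpr50*, an orphan receptor gene of the melatonin receptor family (3.81), *Rreb1*, a zinc-finger factor (3.17), *Pgr15l* (2.58), *Pax6* (2.39), *Insm2* (1.93), *Sp8*, a factor of forebrain interneurons (1.81), the retinoic acid-binding gene *Crabp1* (1.80), *Sall3* (1.62) and *Sox14* (1.52). All 10 passed in edgeR, *Crabp1* least clearly (adjusted p = 0.0373).

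Of the 11 tested genes listed for arcuate kisspeptin neurons, 3 were higher in *Tac2*-positive control cells and none lower, among them *Nhlh2*, a factor needed for reproductive neurons (1.13 on the log2 scale), and *Sox14*. Of 21 neuropeptide genes 1 was higher, *Kiss1*, and 8 were lower, among them *Avp* (-5.99), *Npy* (-5.44), *Penk* (-2.30), *Cck* (-1.55) and *Tac1* (-1.41). *Slc17a6* was lower too (-0.69). Median differences of the arcuate list and of all genes were 0.56 and -0.09.

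Genotypes were also compared inside the *Tac1*-positive neuron-like cells, whose *Tac1* level was 589.4 ± 87.2 CPM in control (SD, n = 6) and 536 ± 130 CPM in *Eed-cKO* (SD, n = 9; log2 difference -0.14, edgeR adjusted p = 0.647). Of 13050 genes 553 were called (4.24%), 352 higher (2.7%) and 201 lower (1.54%). Most were also called in the same direction over All-Hypo cells, 317 of the 352 and 190 of the 201, in sums that contain these cells.

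The 5 largest rises, 4 of them Hox genes, were in genes that had no UMI in control *Tac1*-positive cells. *Hoxc10* reached 43.1 ± 13.5 CPM (SD, n = 9), at least 93.7-fold higher than the floor of 3 UMIs over the pooled control. *Hoxc13* was at least 78.2-fold higher, *Hoxb13* at least 59.5-fold, *Vax2*, a homeobox gene of the ventral eye and forebrain, at least 54.3-fold, and *Hoxd10* at least 50.8-fold. The largest falls were *Myo7a*, an unconventional myosin gene, by 3.89 on the log2 scale, the peptide gene *Grp* by 2.11, the growth factor gene *Igf1* by 1.86, *Gda* by 1.59 and *Fign* by 1.38. From the lists, *Calcr* (calcitonin receptor) rose by 1.40, *Cartpt* by 1.37, *Tbx3* by 1.08 and *Pnoc* by 0.54.

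Across control neuron-like cells (5212) the genes most like each member by Pearson's r of log counts were listed as a description. These points share libraries and sequencing depth. For *Tac2* they were *Kiss1* (r = 0.35), *Rreb1* (0.26), *Pax6* (0.21), *Nab2* (0.18) and *Rlbp1* (0.16). For *Kiss1* they included *Tac2*, *Slc25a45* (0.17), *Sox14* (0.17) and *Tbx3* (0.15). For *Tac1* they included *Foxb1* (0.18), *Arpp21* (0.15), *Foxa1* (0.14) and *Sall3* (0.14).

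Across the 4861 *Eed-cKO* neuron-like cells the value for *Tac2* with *Kiss1* was 0.71, that with *Rreb1* -0.02 and that with *Pax6* 0.000906. *Tac1* stood at 0.14 with *Foxb1* and at 0.12 with *Foxa1*. The value of 0.71 rests on few cells, as 50 *Eed-cKO* neuron-like cells had *Kiss1* and 56 had *Tac2*.

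The receptors and partners of these peptides were taken from lists over All-Hypo cells. Of 4 receptor genes tested, none was called higher and 1 was lower, near the 27.7% of all genes called: *Oprk1*, which encodes the kappa opioid receptor for dynorphin, at 17.1 ± 3.39 CPM in control (SD, n = 6) and 5.48 ± 2.39 CPM in *Eed-cKO* (SD, n = 9; fell by 1.51 on the log2 scale, edgeR adjusted p = 4.33e-06), without overlap between embryos, as 2.66% of all genes were lower and 4.03% higher without overlap. *Tacr1*, the substance P receptor gene, stood at 5.83 and 7.41 CPM (log2 difference 0.30, adjusted p = 0.222), *Tacr3*, the neurokinin B receptor gene, at 7.46 and 5.11 CPM (-0.49, adjusted p = 0.259) and *Kiss1r* at 2.53 and 3.53 CPM (0.33, adjusted p = 0.460). *Tac4* and *Tacr2* were not analysed here. *Pdyn* ran from 44.2 through 48.9 to 57.9 CPM in control and from 17.3 through 39.7 to 47.3 CPM in *Eed-cKO*, and fell by 0.37 on the log2 scale (SE 0.14, edgeR adjusted p = 0.0492).

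Of 8 genes that process or break down the peptides, 1 was higher, the endothelin-converting enzyme gene *Ece1* (0.31), and 2 were lower, the prohormone convertase gene *Pcsk1* (-0.68) and the amidating enzyme gene *Pam* (-0.36), against 15.3% higher and 12.4% lower over all genes. Of 11 tested genes of arcuate kisspeptin neurons, 2 were higher, *Tbx3* (1.32) and *Calcr* (0.81), and 2 were lower, *Prlr*, the prolactin receptor gene (-0.85), and *Sox14* (-0.96), again near those shares. Of 26 neuropeptide genes 6 were higher and 9 lower, against the same 15.3% and 12.4% over all genes. Their median log2 difference was -0.27 against 0.0059 over all genes tested. The genes higher besides *Kiss1* were *Pomc* (2.36), *Npw* (1.85), *Nmu* (1.33), *Cartpt* (1.18) and *Pnoc* (0.75). The 9 lower were *Oxt* (-3.16), *Pmch* (-2.66), *Crh* (-2.14), *Avp* (-1.87), *Ghrh* (-1.69), *Vip* (-1.41), *Agrp* (-1.32), *Grp* (-1.17) and *Pdyn* (-0.37).

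Sex was examined with genotype in the model. *Tac2* was lower in males by 1.28 on the log2 scale (SE 0.43), a difference with p = 0.00775 in edgeR that did not survive adjustment over all genes (adjusted p = 1.00), where 4 of 12545 genes were called (0.0319%). In control, the female embryos held 11.8 and 28.2 CPM of *Tac2* and the 4 males 10.3 to 14.6 CPM. In *Eed-cKO* the 5 females held 3.94 to 38.8 CPM and the 4 males 0 to 9.49 CPM, so the sexes overlapped in each genotype. *Tac1* and *Kiss1* differed by 0.12 and -0.42 between males and females (unadjusted edgeR p = 0.575 and 0.333). The interaction of genotype and sex for *Tac1* stood at -1.02 on the log2 scale (edgeR p = 0.0119, adjusted p = 0.976).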

How the data were processed

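Single-cell RNA of dissociated hypothalamus, divided into 2 to 4 pieces before dissociation and made into 1 or more ddSEQ libraries per embryo, was processed upstream with STAR 2.5.2b and SAMtools 1.3 on mm10, per the submitters' processing notes. The deposited file holds raw UMI counts per gene and cell after the authors' own removal of low-count cells. *Tac1*, *Tac2*, *Kiss1* and all gene lists were chosen with earlier results of these data known. Scanpy 1.11.5 gave 28 Leiden clusters. Those with at least 3 listed markers of a non-neural type were set aside, which leaves All-Hypo, and clusters with general neuronal markers were called neuron-like, while 1665 cells stayed in unnamed clusters. Doublets were kept, and the 822 cells of highest Scrublet score were left out as an alternative.

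Counts were summed per embryo, the replicate, and fitted in edgeR 4.0.16 (TMM, genes with at least 15 UMIs and a median log2 CPM of at least 1.5), with DESeq2 1.42.0 and limma 3.58.1 as alternatives. Shares of cells were compared by exact permutation of the 5005 splits of the 15 embryos (smallest p 0.0002). A cell is positive with at least 1 UMI, and shares among positive cells used embryos with at least 5. Named genes were the 10 largest called excesses in control with at least 20 CPM in positive cells, the 5 largest called rises and falls between genotypes with at least 20 CPM in one of them, the 5 most correlated genes, and list genes, of which some are not reported here. Counts were also simulated with changes of 1.5 on the log2 scale, up or down, and smaller changes were not simulated. On these, edgeR recovered 100.0% of 197 changed genes for All-Hypo (12417 genes) and 78.7% of 197 within *Tac1*-positive cells (12895 genes). Of its calls, 2.96% and 4.91% were false.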

Additional observations from a re-analysis of the deposited data

Results flagged for a closer look

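Among 24 groups of embryos examined, a single embryo stood far from the others in 4, where chance flags about 1 in 20 groups. *Tac2* stood at 38.8 CPM in *Eed-cKO* embryo 8 and at 28.2 CPM in control embryo 6, the embryos that hold the cells of 109 and 115 *Tac2* UMIs. Control embryo 6 also had the highest mean among controls, 8.85 UMIs per *Tac2*-positive cell. The share of All-Hypo cells with at least 5 *Tac1* UMIs was 0.962% in *Eed-cKO* embryo 9, the lowest of its group and the embryo with the fewest cells (208).

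In 3 transmitter classes the gap between positive and negative neuron-like cells differed between genotypes, in a test added after seeing the data. The GABA gap of *Tac1*-positive cells moved by 6.67 percentage points, the Glut gap of *Tac2*-positive cells by 31.0 and their Glut/GABA gap by -15.5. The last rests on few cells, as 6 of the 64 *Tac2*-positive *Eed-cKO* cells were Glut/GABA.

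In the non-neural cells, which the comparisons left out, 4.99% of 481 *Eed-cKO* cells had *Tac1* (exact binomial 95% interval 3.22% to 7.33%) against 1.44% of 347 control cells (0.469% to 3.33%). In *Eed-cKO*, 14 of these 24 cells lay in a vascular leptomeningeal-like cluster of 251 cells, which held 64 control cells, none of them with *Tac1*. A test over embryos was not run.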

How the results depend on the processing

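Of 183 values recomputed under other settings, over 33 results, 140 kept their direction and their side of the threshold, as did 412 of 438 with an embryo left out; the cause was not tested for the rest. The largest library was left out as a choice made after seeing the data. For *Kiss1* expression the call was lost with DESeq2 (1.32), limma-voom (1.22), limma TREAT over libraries (0.95), all deposited cells (1.19), highest doublet scores left out (1.16) and the 10 highest cells left out (0.30). For *Tac2* expression a call was gained with limma TREAT over libraries (-1.501) and without the 10 highest cells (-1.15), a setting bound to push the difference down. The difference in *Tac2* share passed at 2 UMIs (-0.513 points), thinned (-0.688), in neuron-like clusters (-1.08) and over libraries (-0.880), and that in *Tac1* share passed over libraries (3.41). The share of cells with at least 5 *Tac2* UMIs missed the threshold without the large library (-0.188).

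UMIs per *Tac2*-positive cell turned direction at 2 UMIs (-3.35), thinned (-1.36) and without high doublet scores (-1.34). The *Kiss1* share turned when thinned (-0.0635), in all cells (-0.00416), in neuron-like clusters (-0.0374), without doublet scores (-0.0391) and without the large library (-0.00985), and the share with at least 5 *Tac1* UMIs turned in neuron-like clusters (0.0202). *Tac1* with *Pax6* passed without the large library (0.412) and over libraries (0.380). *Kiss1* among *Tac2*-positive cells was lost at 2 UMIs (49.4), thinned (37.1), in neuron-like clusters (20.3) and without doublet scores (20.4). At 2 UMIs and thinned, calls were lost for *Tac1* Glut/GABA (14.1 and 4.80), *Tac1* GABA (-5.43 and -2.39) and *Tac2* Glut (47.1 and 12.1), and without the large library calls were gained for *Tac1* Glut (-14.0) and *Tac2* GABA (-24.1).

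The embryo block of the positive against negative fits is the pairing of 2 sums from 1 animal, and without it the counts of genes fell to 56 for *Tac1* in control, 61 for *Tac1* in *Eed-cKO* and 63 for *Tac2*. Thinned, the *Tac1* counts were 104 and 81, and at 2 UMIs 293 genes differed between genotypes within *Tac1*-positive cells. For *Tac2* these fits could not be run at 2 UMIs or thinned, with too few cells. Embryos left out in turn gave -1.32 (without *Eed-cKO* embryo 8) to 2.85 UMIs per *Tac2*-positive cell, -0.247 to 0.429 points for cells with at least 5 *Tac1* UMIs (turned without control 3 or 4 or *Eed-cKO* 3 or 9), -0.0832 to 0.116 for the *Kiss1* share, -0.973 (passing, without *Eed-cKO* embryo 5) to -0.673 for the *Tac2* share, 0.290 to 0.459 (passing, without control embryo 5) for *Tac1* with *Pax6*, -0.0109 to 0.116 for *Tac2* with *Kiss1*, 18.0 to 22.5 for *Kiss1* among *Tac2*-positive cells, lost in 10 of 15, -24.8 (passing, without control embryo 2) to -17.8 for *Tac2* GABA, and -0.0177 to 0.292 for the sex difference of *Tac1*. With fewer embryos the smallest p of the exact test rises, so the losses in 10 of 15 do not in themselves show a smaller difference. Depth limits the rare genes: *Tac2* and *Kiss1* rest on 64 and 57 positive cells in *Eed-cKO*.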
